A study of Saccharomyces cerevisiae with 12 samples.

Results

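The regions described here are Scc2 peaks at the ends of budding yeast chromosomes, and at the PAU genes that lie there. A peak was taken where it overlapped the first or last 20 kb of any of the 16 nuclear chromosomes and lay more than 250 bp from every tRNA gene. This gave 657 of the 9585 peaks that the authors deposited in 6 lists, and 1 peak per list was left out because a tRNA gene lay beside it. The 32 end windows hold 640 kb, or 5.30% of the nuclear genome. All coordinates are on sacCer3, which is the sequence of strain S288C, whereas the cells were W303, and how far the ends of the 2 strains match was not tested.

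Chromatin immunoprecipitation followed by sequencing mapped Scc2 in MATa cells that all carried Myc-tagged Scc2, Med14 with a FLAG-tagged auxin-inducible degron, and OsTIR1, driven by the ADH1 promoter and inserted at ura3-1. OsTIR1 is the plant F-box protein that marks the degron for destruction once auxin is present. The 2 groups were 3 cultures labelled with auxin (1 mM) and 3 labelled without treatment, each with its own peak list. All were arrested with alpha-factor, with an additional 1.5 hours in it, released into nocodazole for 2 hours and fixed for 30 min. This follows the labels' protocols, which repeat the auxin step for every sample, so the grouping rests on the titles and treatment labels. Because the genotype is shared, auxin itself and loss of Med14 cannot be told apart. The question addressed was where Scc2 is found on the chromosome ends once Med14 has been targeted for degradation.

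Scc2 is the catalytic subunit of the Scc2-Scc4 complex, which loads cohesin onto chromosomes. Med14 is the scaffold subunit of Mediator, the coactivator that links gene-specific activators to RNA polymerase II. Yeast chromosome ends carry telomeric repeats followed by an X element at every end and, at some ends, a longer Y′ element that encodes a helicase-like protein, named YRF1 at several ends. The PAU genes (seripauperins) are a family of short, closely similar genes for cell wall mannoprotein-like proteins, most of them near chromosome ends, and family members are known to be induced when oxygen is low. Reads from such near-identical copies can be exchanged by an aligner. Copies of Y′ elements, of PAU genes and of any other repeated sequence, on the same or different chromosomes, are therefore uncertain as separate observations.

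Here, lists with auxin are also called auxin lists, and those without untreated lists. Each list states only where a peak was called. The sequencing depth is unknown, the absence of a peak means that the caller reported none, and none of the values below is an amount of Scc2. The lists held 940 to 2050 nuclear peaks. Of the lists without auxin, the third differed most from the other 2. The fold enrichment that the authors' peak caller assigned had a median over its end peaks of 2.76. This median was 1.71 and 1.59 in the other 2 lists without auxin, and 4.02, 2.74 and 2.39 in the lists with auxin. The groups overlapped in this measure, although the 2 lowest medians were both from untreated lists, and its part in the results below was not tested. No peak at the ends had the same edges in 2 lists. With 3 lists against 3, the exact two-sided permutation test over lists cannot give a p below 0.1. Over the 11 comparisons planned for these regions the smallest adjusted value was 0.183, so none passed the threshold of 0.05.

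The share of the chromosome ends covered by Scc2 peaks overlapped between groups, while in the rest of the genome they covered less with auxin. Without auxin the end windows held 109, 108 and 85 peaks, and with auxin 100, 119 and 136. These peaks covered 21.3%, 18.7% and 21.7% of the end windows without auxin and 21.5%, 21.9% and 24.1% with auxin. The groups overlapped in both measures, with a difference in covered bases (auxin minus no auxin) of 1.91 percentage points (exact permutation p = 0.2, adjusted 0.244). In the rest of the nuclear genome, peaks away from tRNA genes covered 9.91%, 10.1% and 7.41% of the bases without auxin and 2.83%, 4.05% and 5.51% with auxin, and the groups did not overlap (exact permutation p = 0.1). The number of those peaks did overlap between groups, at 1671, 1674 and 1086 without auxin and 581, 878 and 1104 with auxin.

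The coverage of the ends relative to the rest of the genome was higher in every list with auxin than in any list without. The ratio of the 2 coverages was 2.15, 1.86 and 2.93 without auxin and 7.61, 5.41 and 4.37 with auxin (exact permutation p = 0.1, adjusted 0.183), with means of 2.31 ± 0.553 and 5.80 ± 1.65 (SD, n = 3 each). End windows held 11.4 ± 2.404% of all bases covered away from tRNA genes in untreated lists and 24.3 ± 5.19% in auxin lists (SD, n = 3 each). The ratio differed between ends with and without a Y′ element. For the 15 ends without one its mean was 0.478 in untreated and 1.33 in auxin lists, so that without auxin they were covered less than the rest of the genome. For the 17 ends with one it was 3.93 and 9.74. Leaving out the third list without auxin gave a mean ratio of 2.00 for that group over all ends. With lists cut to the same length, the 940 most significant peaks of each, the mean ratios were 2.91 without and 6.47 with auxin.

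**Figure D1:**
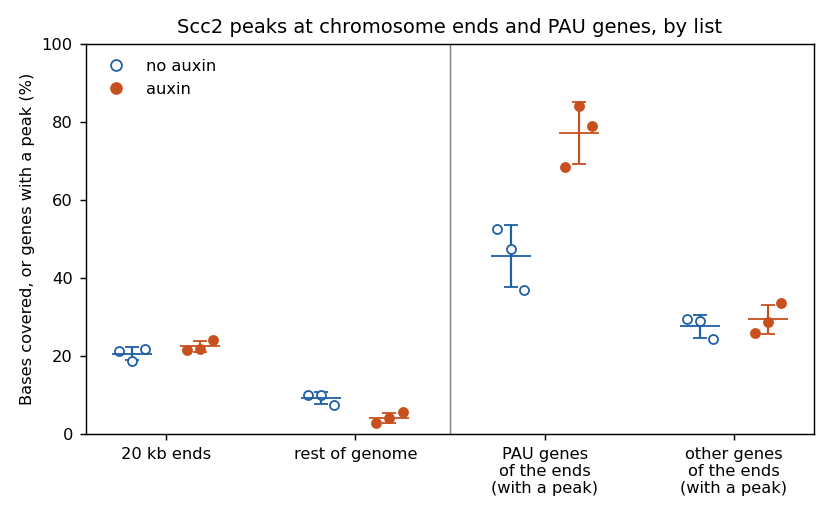
Scc2 peaks at chromosome ends by list. The vertical axis gives percent of bases covered (20 kb ends and rest of the genome) or percent of genes with a peak (19 PAU genes and 227 other coding genes of the ends); points are the 3 lists of each group, and bars are the mean and SD. The groups overlap at the ends and at other genes, and are apart in the rest of the genome (7.41% or more without auxin, 5.51% or less with) and at PAU genes (52.6% or less without, 68.4% or more with).

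In the group means, coverage was highest in the outermost 1 kb and fell within about 10 kb. In the second untreated list it was highest from 1 to 2 kb, at 57.0% against 52.6% in the outermost 1 kb. In the outermost 1 kb, peaks covered 60.4 ± 8.33% of bases in untreated lists and 77.6 ± 2.01% in auxin lists (SD, n = 3 each). In the bin from 2 to 3 kb the group means were 0.641 percentage points apart, at 53.9 ± 0.511% and 54.6 ± 0.0642%. By 9 to 10 kb the coverage was 8.27 ± 0.713% without and 10.4 ± 1.07% with auxin.

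The sign of the difference depended on the distance from the end. From 0 to 5 kb, lists without auxin covered 54.1%, 50.8% and 55.7% of bases and lists with auxin 57.5%, 56.4% and 59.6% (exact permutation p = 0.1, adjusted 0.183). From 10 to 15 kb the values were 4.71%, 4.02% and 4.38% against 5.52%, 6.48% and 6.95% (exact permutation p = 0.1, adjusted 0.183). In both of these zones every list with auxin lay above every list without. From 5 to 10 kb the groups overlapped, with means of 17.9 ± 3.86% and 22.5 ± 2.54% (n = 3 each, SD) and an exact permutation p of 0.2 (adjusted 0.244). From 15 to 20 kb the order turned, from 7.02%, 6.62% and 5.90% in untreated lists to 1.66%, 4.01% and 4.33% in auxin lists (exact permutation p = 0.1, adjusted 0.183). Single genes held part of this difference. Peaks at HXK1 measured 785, 1197 and 1439 bp and at DLD3 467, 1145 and 269 bp without auxin, with none over either gene in auxin lists. Coverage of ERG13 averaged 76.3% without and 4.99% with auxin, and of YHR214C-B 93.4% and 46.0%, both partly outside this zone. A region at IMA4 went the other way, in 1 untreated and 3 auxin lists. How the difference is spread over the ends was not tested. The next band, from 20 to 40 kb, had 5.64 ± 1.10% and 1.93 ± 0.669% (SD, n = 3 each), also lower in every list with auxin. The zones from 0 to 5 kb and from 10 to 15 kb thus differed in the opposite direction to that beyond 15 kb. Of the 15 bins of 1 kb up to 15 kb, 7 were higher in every auxin list and 8 overlapped between groups. The 7 include the bin from 2 to 3 kb, where the highest untreated list had 54.519% and the lowest auxin list 54.528%. From 15 to 20 kb 0 of 5 bins were higher and 4 lower in every auxin list, and from 20 to 40 kb 0 of 20 were higher and 15 lower. The share over 1 kb bins of the whole genome was not computed. The ends as a whole differed little.

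**Figure D2:**
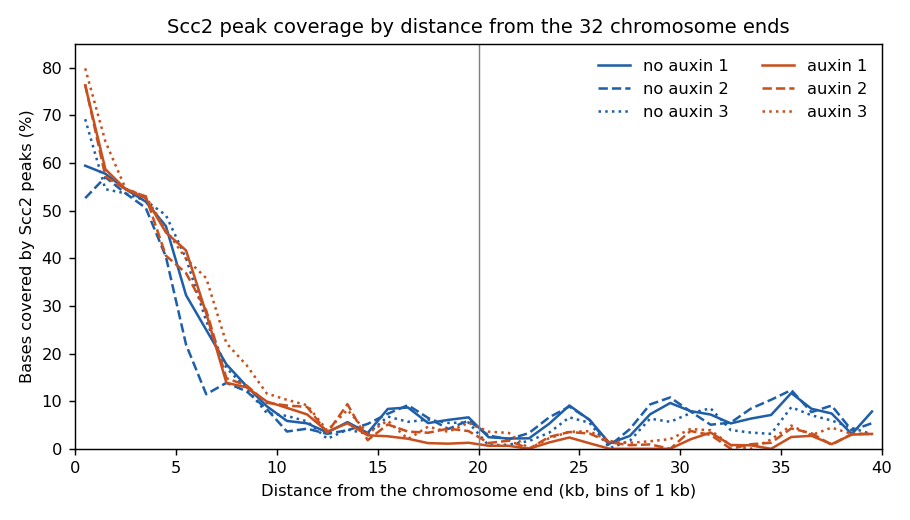
Percent of bases covered by Scc2 peaks in 1 kb bins (vertical axis) against distance from the chromosome end in kb (horizontal axis), over all 32 ends, 1 line per list; the grey line marks 20 kb. In the outermost bin the lists with auxin average 77.6% and those without 60.4%, and from 15 to 20 kb the lists with auxin lie lower (3.33% against 6.51% on average).

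Peaks reached the last base of the chromosome mainly in lists with auxin. The terminal base was inside a peak at 0, 0 and 20 of the 32 ends in untreated lists and at 30, 28 and 29 in auxin lists (exact permutation p = 0.1). The third list without auxin, the one with the higher fold enrichment in its group, supplied all 20. Without it the contrast was 0 and 0 ends against 28 to 30, so 1 list decides the mean of its group here. At least 1 peak lay in the window of 29, 30 and 29 ends without auxin and of 31, 30 and 31 ends with auxin, so that nearly every end held a peak in each condition (exact permutation p = 0.2, adjusted 0.244).

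The ends fell into 2 kinds. Those with a Y′ element, 17 of 32 by general knowledge of the S288C genome and 7 of them with a gene named YRF1, had group means of 21.7% to 59.7% of their 20 kb covered without auxin and 26.1% to 65.4% with auxin. The 15 other ends had 0% to 14.5% without and 0% to 10.5% with auxin. At Y′ ends the first 5 kb were covered almost in full in both groups, at 93.6 ± 4.23% in untreated and 95.7 ± 1.47% in auxin lists (n = 3 each, SD), with an exact permutation p of 0.7. All 8 YRF1 genes had a peak in all 6 lists, with at least 83.2% of the coding sequence covered in each. YRF1-5 on chromosome XII, for example, was covered to 99.3%, 98.4% and 100% without auxin and 99.7%, 98.9% and 98.7% with auxin. Single peaks spanned most of a Y′ element, the widest end peak of a list measuring 5446 to 6071 bp without auxin and 6815 to 7617 bp with auxin.

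At the 15 ends without a Y′ element, peaks of the first 5 kb were more extensive with auxin. They covered 8.19%, 7.69% and 8.67% of bases without and 13.2%, 13.6% and 17.8% with auxin (exact permutation p = 0.1). The groups did not overlap. From 5 to 10 kb these ends had lower coverage with auxin, at 2.69 ± 0.966% against 1.29 ± 0.577%, whereas Y′ ends had higher coverage, at 31.3 ± 7.34% in untreated and 41.2 ± 4.54% in auxin lists (n = 3 each, SD), and the exact permutation p was 0.1 in both. From 15 to 20 kb both kinds of end were lower with auxin, at 5.19 ± 0.897% and 2.65 ± 1.08% without a Y′ element and 7.68 ± 0.698% and 3.93 ± 1.86% with one. The split by Y′ element was added after the values had been seen, and over the 21 added comparisons the smallest adjusted p by the exact permutation test was 0.175.

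Compared end by end, higher coverage with auxin was more frequent than lower coverage. At 13 of 32 ends every list with auxin covered more of the window than every list without, and at 2 ends every list covered less. Of 563 windows of 20 kb tiled between the ends, the groups were apart in the first way at 3.37% and in the second at 52.4%. The ends with higher coverage comprised 7 with and 6 without a Y′ element. On the right end of chromosome II, coverage was 0%, 1.0% and 0% of the window without auxin and 7.2%, 5.2% and 7.7% with auxin. On the right end of chromosome XIV it was 0%, 0% and 2.0% against 3.2%, 3.6% and 3.4%. The 2 ends with lower coverage were VI right and VIII right. VI right had 14.5 ± 2.37% without and 3.81 ± 0.850% with auxin, and VIII right 56.5 ± 5.08% and 44.5 ± 4.13% (SD, n = 3 each). Within VIII right, the 5383 bp annotated span of YHR214C-B was covered to 93.4 ± 4.25% without and 46.0 ± 2.67% with auxin. Whether this span is unique in the genome was not examined, and its part in the lower coverage of VIII right was not tested. IMD2 was covered to 66.3 ± 16.5% and 31.1 ± 35.6%, while YHR219W was at 100% in every list. The left end of chromosome VII had no peak in 4 of the 6 lists, and on the right end of chromosome III no list without auxin held one.

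**Figure D3:**
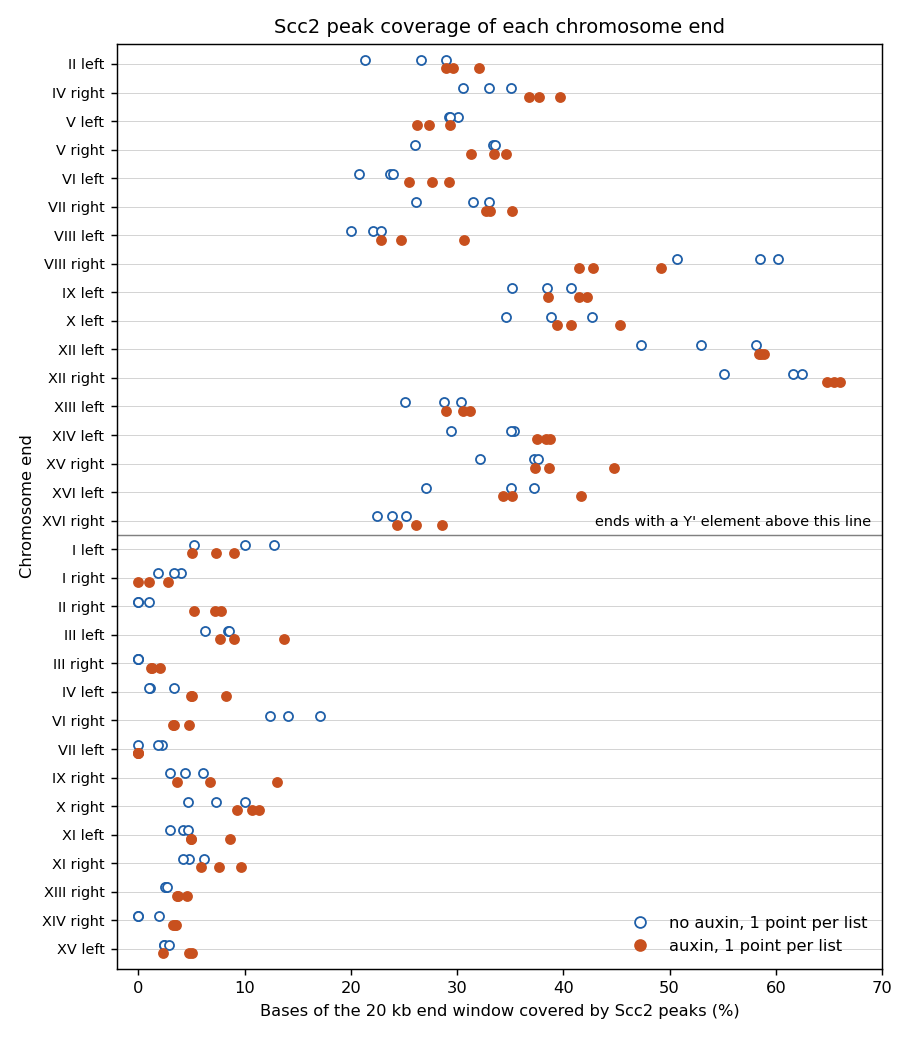
Percent of each 20 kb end window covered by Scc2 peaks (horizontal axis) for the 32 chromosome ends (vertical axis), 1 point per list. Ends with a Y′ element, above the grey line, have group means of 21.7% or more, and the other ends of 14.5% or less; VI right and VIII right are the 2 ends where every list with auxin is below every list without.

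Overlapping peaks of the 6 lists were merged into 147 regions at the ends among 2497 regions away from tRNA genes. All 6 lists held 47 of the 147 (here called kept), or 32%, against 10.1% of all 2497. Only 3 were held by all lists without auxin and by none with it (lost), or 2.04% against 14.0% of all regions. Another 10 were held by all lists with auxin and by none without (gained), or 6.80% against 4.12%. Both small counts changed when 1 list was left out. Lost regions numbered 8 without the third list lacking auxin, 6 without the second, and 5 without the third list with auxin, and 21 were gained without the first list with auxin. With 1 list fewer to satisfy, the rule is easier to meet, so these counts tend to rise by construction.

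The 3 lost regions lay at genes of metabolism. At IRC7, which encodes a cysteine beta-lyase, the region on chromosome VI spanned 264249 to 265344, and peaks covered 95.6%, 86.9% and 93.0% of the coding sequence in untreated lists and 0% in auxin lists. At HXK1, a hexokinase gene on the same chromosome end (region 253562 to 255000), the coverage was 80.7%, 82.1% and 96.6% in untreated lists and 0% in each auxin list. At DLD3, a D-lactate dehydrogenase family gene on chromosome V (16575 to 17719), it was 55.4%, 76.8% and 18.04% against 0%. IRC7 and HXK1 are both on the right end of chromosome VI, one of the 2 ends with lower coverage, and HXK1 and DLD3 lie more than 15 kb from the end. ERG13, the HMG-CoA synthase gene of sterol synthesis, was chosen after its values were seen. It lies 19.1 kb from the left end of chromosome XIII and had a peak in 3 of 3 lists without and 1 of 3 with auxin.

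Of the 47 kept regions, 34 lay at Y′ ends and 29 began within 5 kb of the end. The 10 with the highest median fold without auxin, as the authors' peak caller gave it, included 6 named for YRF1 genes (YRF1-1, YRF1-2, YRF1-4, YRF1-6, YRF1-7 and YRF1-8) and 1 for YML133C at the left end of chromosome XIII. The highest lay upstream of PUG1, a plasma membrane transporter gene on chromosome V, from 558977 to 559417, and did not reach its coding sequence in any list. Another was the terminal region of chromosome I, from 1 to 766, whose nearest gene is PAU8. The last, at YHR214C-B on the right end of chromosome VIII, spanned 544089 to 549357. Its coding sequence was covered to 93.6%, 89.0% and 97.5% without auxin and to 48.1%, 47.0% and 43.0% with auxin, so that a region counted as kept can still hold narrower peaks.

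The 10 gained regions were short, with a median width of 331 bp against 1335 bp for kept ones, and all lay less than 15 kb from the end. Those at the terminal base of a chromosome were XIII right (the last 251 bp), IV left (1 to 559) and II right (the last 748 bp). A second region on II right (811291 to 812234) lay at COS2, of a family of endosomal membrane proteins. PAU6, PAU9, PAU15 and PAU18 each held a gained region of their own. The other 2 lay just upstream of a gene. One was at YHL049C on VIII left (4582 to 4945), whose coding sequence itself had a peak in all 6 lists, and the other at SOR1, a sorbitol dehydrogenase gene on X right (735331 to 735865) that had other peaks in 2 lists without auxin.

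PAU genes at the chromosome ends had Scc2 peaks in both conditions, and at more members with auxin. Of the 24 PAU genes in the annotation, 19 lie in the end windows, 1.42 to 14.9 kb from the end. A peak overlapped the coding sequence or the 250 bp upstream at 10, 9 and 7 of the 19 without auxin and at 13, 16 and 15 with auxin. The groups did not overlap, at 45.6 ± 8.04% and 77.2 ± 8.04% of the genes (n = 3 each, SD), and the exact permutation p was 0.1 (adjusted 0.183). Without the third list lacking auxin that group's mean was 50.0%. With lists of equal length, a peak lay at 12.3% of the 19 in untreated and at 61.4% in auxin lists on average. That cut kept the 940 most significant nuclear peaks of each list, before peaks beside tRNA genes were left out. It left the first auxin list, of 940, whole and shortened the others, which held up to 2050. Weaker peaks were thus lost mainly from the longer lists by construction, so the larger difference is no separate support.

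At the other coding genes of the ends the groups overlapped. Peaks lay at 67, 66 and 55 of these 227 in untreated lists and at 59, 65 and 76 in auxin lists. The means were 27.6 ± 2.93% and 29.4 ± 3.798% (n = 3 each, SD), with an exact permutation p of 0.6 (adjusted 0.6). The sign of this difference turned when overlap with the coding span alone was counted, at -0.294 percentage points. The share of PAU genes exceeded that of other end genes by 23.1, 18.3 and 12.6 percentage points without auxin and by 42.4, 55.6 and 45.5 with auxin (exact permutation p = 0.1, adjusted 0.183). With lists of equal length PAU genes were 8.28 percentage points below the other genes without auxin and 37.2 above them with auxin. The same cut, which falls mainly on the longer lists, enters these values. Against the 41 other genes at the same distances that are at most 600 bp long, the excess of PAU genes was 17.97 points without and 51.2 with auxin on average.

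The difference was also present within each kind of end, where PAU genes and other genes at the same distances were set side by side without a test. At ends without a Y′ element, the 9 PAU genes exceeded the 73 other genes by 8.52, 23.7 and 5.63 points in untreated lists and by 36.2, 57.1 and 41.9 points in auxin lists. At Y′ ends, the 10 PAU genes exceeded the 70 other genes by 44.3, 21.4 and 27.1 points in untreated lists and by 51.4, 58.6 and 52.9 points in auxin lists. The groups did not overlap at either kind of end.

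Individual PAU genes differed in their pattern. Peaks lay in all 6 lists at 6 of the 19 genes, or 31.6%, against 5.86% of all 6002 nuclear coding genes. This share was 20.3% among the 227 other coding genes of the ends and 33.9% among the 121 of them at Y′ ends. They lay in all lists with auxin and in none without at 4 PAU genes, or 21.1%, against 1.12% of all coding genes and 2.20% of the other end genes, and the reverse held for none of the 19, against 4.50%. At 9 PAU genes more lists with auxin than without held a peak and at none fewer, whereas 6.63% of all coding genes had more and 20.3% had fewer. Of the 227 other end genes 25 had more and 18 had fewer. For these other end genes the 2 counts were close, 184 had equal numbers, and their share with a peak overlapped between groups. No direction is read from them.

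PAU1 and PAU14, on the left ends of chromosomes X and IX, were covered in nearly full length in every list. For PAU1 (8776 to 9138) the covered share of the coding sequence was 100%, 96.4% and 100% in untreated lists and 100% in each auxin list, and for PAU14 (8793 to 9155) it was 93.4%, 100% and 100% against 98.6%, 97.0% and 100%. PAU8, on I left, was likewise covered to 98.4 ± 1.41% and 97.2 ± 4.77% (SD, n = 3 each). PAU13 on VIII left, PAU21 on XV right and PAU22 on XVI left had peaks in all 6 lists that covered 42.6% to 93.3% of the gene. These 6 genes did not separate the 2 conditions. PAU1 and PAU14 lie 8.775 and 8.792 kb from their ends, on the same ends as VTH2 and VTH1 of 4650 bp each. PAU21 and PAU22 measure 495 bp each and share their ends with the related genes ERR1 and ERR2. Each pair is uncertain as separate observations, and sequence identity was not computed.

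The 4 genes with peaks in lists with auxin alone were PAU6, PAU9, PAU15 and PAU18. PAU6 on XIV right (781918 to 782280) was covered to 59.0%, 80.7% and 70.2% with auxin, and PAU18 on XII left (13083 to 13445) to 56.7%, 82.1% and 62.0%. PAU15 on IX right (433929 to 434303) was covered to 54.9%, 72.3% and 54.4%, and PAU9 on II left, an annotated span of 129 bp, to 89.9%, 77.5% and 85.3%. In lists without auxin all 4 were at 0%. They lie 2.05 to 13.1 kb from the end, at 2 ends with and 2 without a Y′ element.

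The remaining 9 PAU genes of the ends had peaks in some lists or in none. PAU10, PAU12 and PAU16 had one in 2 lists without and all 3 with auxin. PAU20 had one in 2 lists with auxin only, PAU4 in 1 list without and 2 with auxin, and PAU24 in 1 list of each group. PAU3, PAU11 and PAU19 had none in any list, although the last base of chromosome XIII, 1.42 kb beyond PAU19, lay in a gained region. By kind of end, 8, 6 and 6 of the 10 PAU genes at Y′ ends had a peak without and 9, 10 and 10 with auxin, against 2, 3 and 1 and 4, 6 and 5 of the 9 at other ends. The groups were apart at both kinds.

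**Figure D4:**
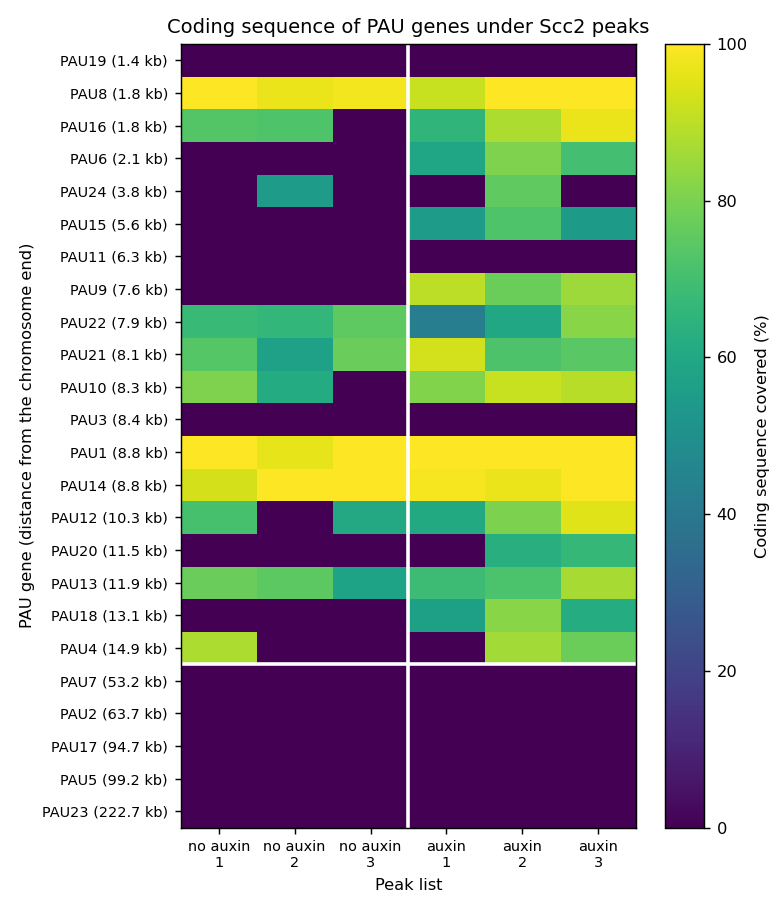
Percent of the coding sequence of each PAU gene under Scc2 peaks (colour), for the 24 genes ordered by distance from the chromosome end (rows) in the 6 lists (columns). The white horizontal line separates the 19 genes of the end windows from 5 farther inside, which are at 0% in every list; PAU6, PAU9, PAU15 and PAU18 are at 0% without auxin and at 54.4% or more with auxin.

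The 5 PAU genes outside the end windows (PAU2, PAU5, PAU7, PAU17 and PAU23), 53.2 to 223 kb from the end, had no peak in any list, as did 3 of the 19 within the windows. All 19 genes of the ends are transcribed toward the chromosome end, as are 121 of the 227 other end genes.

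Scc2 peaks at PAU genes lay within the short coding sequence rather than over the promoter. The summit fell inside the coding sequence at 10 of 10, 9 of 9 and 7 of 7 PAU genes with a peak without auxin, and at 13 of 13, 15 of 16 and 15 of 15 with auxin. The exception was PAU9 in the second list with auxin, 18 bp upstream. The median summit lay 153 to 226 bp from the start codon without auxin and 120 to 186 bp with auxin, in genes of a median 363 bp. Averaged over the 19 genes, peaks covered 36.4 ± 6.76% of the coding sequence in untreated lists and 61.4 ± 9.42% in auxin lists (SD, n = 3 each). Coverage of the 250 bp upstream was 3.26 ± 3.00% and 11.9 ± 3.66%, and of the 250 bp downstream 0.393 ± 0.243% and 0.856 ± 1.22%. At 150 bp into the gene, 45.6 ± 8.04% of the 19 genes lay in a peak without auxin and 71.9 ± 8.04% with auxin. At 500 bp downstream of the start codon none did in any list. Other peaks lay farther downstream, with 28.1 ± 16.1% without and 31.6 ± 15.8% with auxin at 1500 bp (SD, n = 3 each).

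The peaks at PAU genes were narrow and of middling rank. Their median width was 284 to 372 bp without and 260 to 328 bp with auxin. By the authors' fold enrichment, used within each list, the median PAU peak was exceeded by 53.7%, 57.6% and 72.2% of the peaks away from tRNA genes in the lists without auxin and by 65.1%, 44.1% and 49.6% in those with auxin. PAU14, among the highest, was exceeded by 28.8%, 24.1% and 54.3% of peaks without and by 33.3%, 19.7% and 19.9% with auxin.

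**Figure D5:**
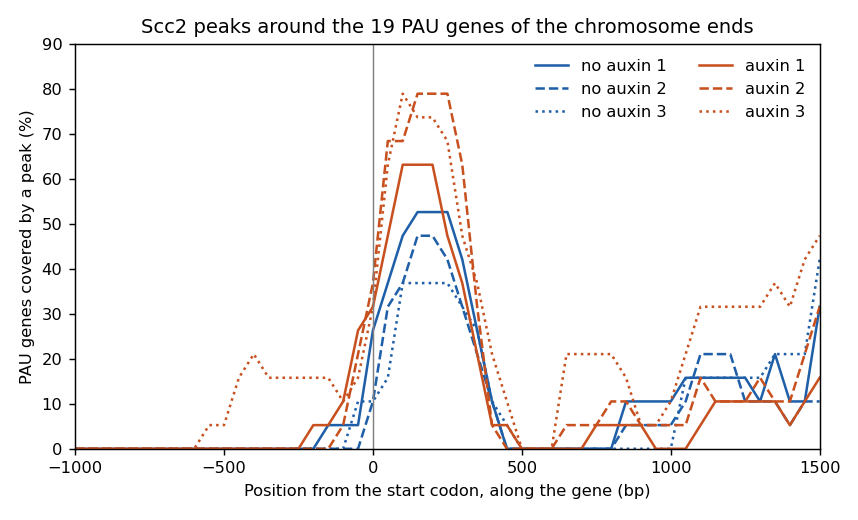
Percent of the 19 PAU genes of the chromosome ends that lie in an Scc2 peak (vertical axis) by position from the start codon along the gene in bp (horizontal axis), 1 line per list. All lists rise inside the coding sequence, to 45.6% on average without auxin and 71.9% with auxin at 150 bp, and fall to 0% at 500 bp. Farther downstream they rise again, to 28.1% without and 31.6% with auxin on average at 1500 bp.

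Relatives of the PAU genes outside the ends also had peaks. Of the 6 DAN and TIR genes, which encode cell wall mannoproteins of cells short of oxygen, 1, 2 and 2 had a peak without auxin and 2, 4 and 4 with auxin. Over all 6002 nuclear coding genes, 6.63% had a peak in more lists with auxin and 20.3% in fewer. With 6 genes, chosen with earlier results known, no direction is read from the family. TIR3, 105 kb from the end of chromosome IX, was covered to 34.1%, 67.2% and 49.9% with auxin and 0% without. TIR1 had a peak in 2 lists with auxin and none without, TIR4 in 2 of each group, and DAN4 in all 6.

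Other gene families of the ends showed no common pattern. For comparison with the counts here and below, 27.6% of the 227 other coding genes of the ends had a peak without and 29.4% with auxin on average. Of the same 227, 2.20% had one in all lists with auxin and in none without. The 3 ERR genes are relatives of enolase, and ERR1 and ERR2 had a peak in each list with auxin and in none without. At both genes the peak of the first list with auxin lay apart from those of the other 2. Neither gene held a gained region. Peaks covered 19.2%, 28.7% and 17.2% of ERR1 and 19.3%, 29.9% and 17.7% of ERR2 with auxin, and these 2 genes lie 9.70 and 9.56 kb from the end, on the same ends as PAU21 and PAU22. As related copies they are uncertain as separate observations. Of 11 COS genes in the end windows, 2, 0 and 0 had a peak without auxin and 2, 2 and 4 with auxin. COS1 had one in all 3 lists with auxin and none without, but its coding sequence was covered to 10.0% at most. COS2 had one in 2 lists with auxin and COS5 in 1 list without and 2 with auxin.

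Of the 8 thiamine and vitamin B6 genes of the ends, 0, 1 and 0 had a peak without auxin and 2, 3 and 2 with auxin. The members with a peak in at least 2 lists of a group were SNZ2, SNZ3 and THI5, each in 2 lists with auxin, and SNZ3 also in 1 without. Of 10 maltose and isomaltose genes there, 4, 1 and 2 had a peak without and 1, 2 and 1 with auxin. IMA4, an isomaltase gene, had one in 2 lists without and 3 with auxin, IMA3 in 2 and 1, and the transporter gene MPH3 in 2 and 0. None of the 5 AAD (aryl-alcohol dehydrogenase) genes, the 5 iron uptake genes or the 2 phosphatase genes of the ends had a peak in any list.

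Flocculin genes, which encode adhesins of the cell surface, had peaks whatever the treatment. FLO10, the member within 20 kb of an end, and FLO1, FLO5, FLO9 and FLO11, 22.2 to 46.2 kb from an end, each had one in all 6 lists. This held for 5.86% of all 6002 nuclear coding genes. FLO11 was covered to 23.6%, 20.2% and 30.8% without auxin and 44.3%, 45.1% and 44.9% with auxin. Of 4 hexose transporter genes in the end windows, HXT9 alone had a peak in at least 2 lists of a group, in 2 lists with auxin. HXT3, HXT4, HXT6 and HXT7, far from any end, had one in each list without auxin and none with it, as had 4.50% of all coding genes.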

How the data were processed

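Peaks of Scc2 were deposited by the authors as a list of narrow peaks for each of 6 Myc immunoprecipitates; for the 6 total chromatin samples no separate list was analysed. Per the submitters' processing notes, Bowtie2 2.4.2 and MACS2 2.1.1.20160309 were used on sacCer3; which step each tool did, the control and the calling threshold: not given in the sources used here. The fold in each list is a ratio as deposited by the authors, significance was deposited as −log10 p-values and −log10 q-values, the integer score deposited with them was not used, and positions are in base pairs. Replicates were not pooled. Depth is unknown, averaged tracks were not used, and calibration by fission yeast enters no value.

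Groups and replicate numbers come from the titles; a separate culture is described for each replicate. Genes came from a RefSeq table of assembly R64, with strand read from systematic names. General knowledge of the genome supplied the chromosome lengths and the 17 ends with a Y′ element; 0 peaks ran past these lengths, and peaks reached the last base of 15 chromosomes. No sequence was used here.

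A gene counted as having a peak when 1 base or more overlapped its annotated span or the 250 bp upstream. Groups of lists were compared by exact permutation of the 20 assignments (two-sided, difference of means) (Python 3.11.15), with Benjamini-Hochberg adjustment over 11 planned and, separately, 21 added comparisons. The code was tested on simulated lists. Named were all PAU genes, the lost, kept and gained regions up to 10 each by median fold, and members of 11 other families with a peak in at least 2 lists of a group. The members, families and tests were chosen with earlier results of these data known. Alternatives changed the window, the tRNA distance, the threshold (−log10 q of at least 5), list length, overlap and gene window, left out each list, or paired lists by number.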

Additional observations from a re-analysis of the deposited data

How the results depend on the processing

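Over 16 to 18 alternatives each, the differences (auxin minus no auxin) in end peaks, covered bases, ratio to the rest of the genome, and PAU share with and without subtraction of other end genes kept their sign, while the number of ends with a peak kept it or came to 0 (at Y′ ends alone). No p passed 0.05, which the design does not allow. Pairing lists by number leaves every difference unchanged by construction. The PAU difference was also the same 31.6 points with 30 kb windows, either tRNA setting, and each change of overlap or gene window. Such alternatives add nothing on its sign. Over all alternatives, the PAU difference was 26.2 to 49.1 percentage points, and that of the ratio 0.853 to 6.28. The difference in covered bases was 0.267 points with 30 kb windows, where the inner zone is included, and 4.44 with 10 kb windows. Reversed were other end genes, at -1.35 points with 30 kb windows, -0.294 with the coding span only and -1.63 for genes up to 600 bp, and the zone from 5 to 10 kb, at -1.40 without Y′ ends; the cause was not tested. With 1 list left out, the difference in other end genes ranged from -0.294 to 3.45 points. Kept regions numbered 31 with lists of equal length, and lost regions 1 with 10 kb and 5 with 30 kb windows, which hold fewer and more regions by construction. With 1 list left out, lost regions numbered 3 to 8 and gained regions 10 to 21, under a rule that is easier to meet by construction.

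Deviations from the group means in 1 kb bins correlated at -0.0487, 0.0236 and -0.0142 for same-numbered lists. Being centred within each group of 3 lists, they cannot show whether same-numbered cultures were paired. With the replicate block, the exact sign-flip permutation p was 0.25, its smallest value, for the PAU difference of 31.6 points, the ratio difference of 3.49 and the covered bases, and 1 for other end genes at 1.76 points. Unknown depth limits what a missing peak means.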
